A study of Orbilia oligospora with 9 samples.

Results

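Short-chain dehydrogenases are a large family of enzymes that move hydride between an alcohol or a ketone and the cofactor NAD(H) or NADP(H). In filamentous fungi they act in fatty acid synthesis and breakdown, in melanin synthesis and as tailoring enzymes of secondary metabolite pathways, where their genes often stand within clusters of biosynthetic genes. The genes described here are the locus-tagged genes whose Pfam annotation names a short chain dehydrogenase domain. Genes on the KEGG maps for fatty acid degradation, peroxisome, glycolysis, steroid, sphingolipid, tyrosine or glycine and serine metabolism were left out, as were AOL_s00215g274, AOL_s00110g45 and AOL_s00110g48, each by name. Of 48 genes with the domain, 8 were left out in this way and 40 remained, out of 12901 loci in the table.

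RNA was taken from hyphae of Orbilia oligospora (Arthrobotrys oligospora) strain ATCC 24927, a soil fungus that traps nematodes, after 5 days at 28 °C on TYGA, an agar medium with tryptone, yeast extract and glucose. There were 3 libraries labelled as Aomdv1 mutant, 3 labelled as Aovps1 mutant and 3 from wild type (WT). All share the strain, the medium, the culture time and a treatment label for the differentiation of aerial hyphae. The genotype tags say knockdown and the design text says deletion, and neither gives the number of transformants. The design text calls the libraries biological replicates without saying that each had its own culture, so the p-values measure only the spread between these libraries.

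The label of the Aomdv1 libraries was not borne out by transcript level. MDV1 (AOL_s00097g206), the adaptor gene of mitochondrial division, averaged 109 ± 23.5 FPKM in the libraries labelled Aomdv1, 123 ± 22.6 in those labelled Aovps1 and 121 ± 10.5 in WT (SD, n = 3 each). VPS1 (AOL_s00007g394), the dynamin-related GTPase gene, averaged 44.0 ± 9.95, 37.9 ± 13.4 and 87.1 ± 16.7 FPKM in the same order, and its log2 fold change over WT was -1.23 in the libraries labelled Aovps1 (adjusted p = 0.0421) and -0.97 in those labelled Aomdv1 (adjusted p = 0.117). Between the labelled mutants, Aovps1 over Aomdv1, the VPS1 change was -0.26 (adjusted p = 0.79). VPS1 level thus did not set the libraries labelled Aovps1 apart from those labelled Aomdv1, and its transcript was present in both. All libraries are therefore named by label, and every direction given below is that of the labelled libraries. FPKM counts fragments per kilobase of gene, scaled to the size of the library, so levels of different genes can be set side by side. The estimated depth was 15850000 to 17400000 fragments in the libraries labelled Aomdv1, 18100000 to 19300000 in those labelled Aovps1 and 17200000 to 19100000 in WT. At the median span of the 40 genes, 1109 bp, an FPKM of 1 then stands for 17.6 to 21.4 fragments. Library 3 labelled Aomdv1 and WT library 3 stood apart from their groups: correlations across genes of log2 values went as low as 0.863 among libraries labelled Aomdv1 and 0.896 among WT libraries, against 0.98 to 0.991 among those labelled Aovps1.

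Housekeeping genes of the table were present in all 9 libraries. Actin stood at 1831 to 2373 FPKM in the libraries labelled Aomdv1, 2338 to 2406 in those labelled Aovps1 and 892 to 1026 in WT. The 3 tubulin genes summed to 1013 to 1279, 1454 to 1521 and 1178 to 1416 FPKM in the same order of groups. Glyceraldehyde-3-phosphate dehydrogenase stood at 2384 to 3764, 2309 to 2994 and 2945 to 3799 FPKM. All 7 genes on the list of chitin synthases were at 1 FPKM or more in all 9 libraries. The 7 genes with hits to regulators of conidiation (fluG, abaA, stuA, veA, wetA and flbA) summed to 50.5 to 168 FPKM in the libraries labelled Aomdv1, 135 to 138 in those labelled Aovps1 and 71.5 to 157 in WT, and 6 of the 7 were at 1 FPKM or more in all 9 libraries. The lowest sum was that of library 3 labelled Aomdv1, where the wetA gene (AOL_s00173g221) was at 0.05 FPKM. The 3 hydrophobin genes, coat proteins of aerial hyphae and spores, summed to 0.13 to 1.92, 0 to 0.39 and 1400 to 1909 FPKM in the same order of groups. Nearly all of the WT sum was AOL_s00006g570, at 1397 to 1909 FPKM. The others were at 2.88 FPKM at most in WT and at 0 in the labelled mutants. The part of these differences in the values below was not tested, and in bulk RNA fewer cells of a kind cannot be told apart from less RNA per cell.

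The 40 genes lie on 18 scaffolds, 18 on the plus and 22 on the minus strand, with spans of 667 to 2994 bp. Start and end of all 40 equal those of the RefSeq gene table for assembly AOL24927 1.0. No member overlaps another locus of the table, and for all 40 the short chain dehydrogenase domain is the only Pfam entry listed. The immediate neighbours of the members likewise list no more than a single Pfam entry per gene. Further domains of a protein may therefore go unlisted. By best Swiss-Prot hit, 28 of them resemble an enzyme of a named biosynthetic cluster of another fungus, such as the clusters for PR-toxin, T-toxin, erinacine or botcinic acid. What these genes make in O. oligospora is not known from the table, so the names below are those of the hits. By KEGG, 12 were assigned to retinol dehydrogenase 12 and 4 to all-trans-retinol dehydrogenase, names from animal enzymes. Another 10 carried a KEGG name for an unrelated function, such as the sorting protein VPS45 (AOL_s00076g323), a ubiquitin ligase (AOL_s00006g566) or cyanide hydratase (AOL_s00054g113 and AOL_s00043g279), against the protein hit of the same row.

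Levels ranged widely within the family. Mean FPKM over the 9 libraries was at least 100 for 8 genes, 10 to under 100 for 17, 1 to under 10 for 12 and under 1 for 3. In all, the 40 genes held 0.208 to 0.353% of the summed FPKM in the libraries labelled Aomdv1, 0.234 to 0.324% in those labelled Aovps1 and 0.205 to 0.277% in WT, so the groups overlapped.

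**Figure D1:**
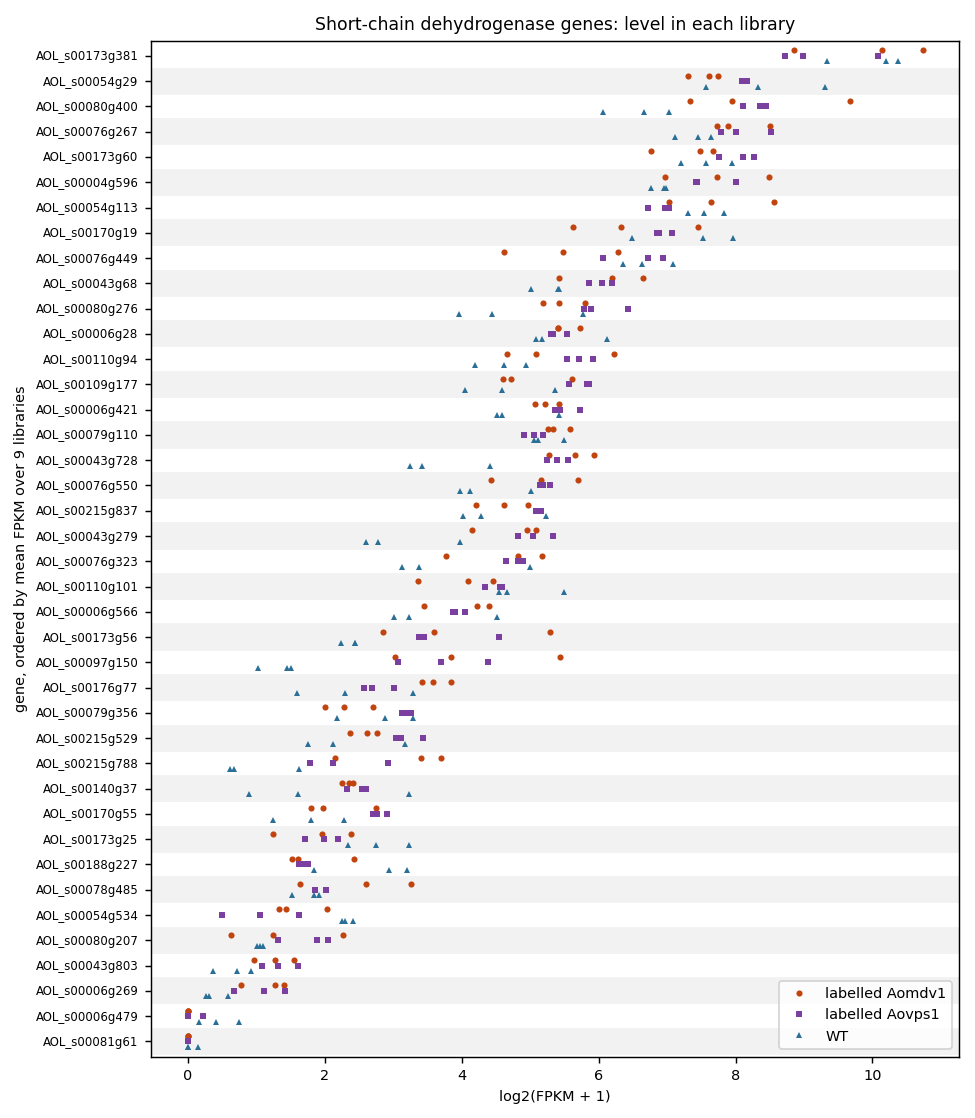
Level of each of the 40 genes in each of the 9 libraries, as log2(FPKM + 1) on the horizontal axis, with genes ordered down the page by mean FPKM. Circles are libraries labelled Aomdv1, squares those labelled Aovps1 and triangles WT; AOL_s00173g381 stands highest and AOL_s00081g61 lowest.

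The most abundant member was AOL_s00173g381, whose best hit is prx4 of the PR-toxin cluster of Penicillium. It had 460, 1131 and 1702 FPKM in the libraries labelled Aomdv1, 504, 1085 and 422 in those labelled Aovps1 and 1319, 1174 and 645 in WT. The groups overlapped, and the libraries labelled Aomdv1 alone differed by up to 3.7-fold. This single gene made up 16.4 to 43.1% of the summed FPKM of the family, and it ranked 195 by mean FPKM among all loci. Its log2 fold change over WT was -0.06 in the libraries labelled Aomdv1 (95% interval -1.23 to 1.11, adjusted p = 0.965) and -0.70 in those labelled Aovps1 (-1.87 to 0.46, adjusted p = 0.399).

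The members with hits to enzymes of fatty acid metabolism differed widely in level, and none of them passed the threshold. AOL_s00054g29 resembles the peroxisomal multifunctional protein FOX2, which carries out the hydration and dehydrogenation steps of fatty acid beta-oxidation, and it stayed in the family because its KEGG maps are those of propanoate and beta-alanine. It stood at 157, 213 and 195 FPKM in the libraries labelled Aomdv1, 271, 285 and 280 in those labelled Aovps1 and 320, 633 and 190 in WT. The WT libraries spanned a wider range than either labelled mutant group and overlapped both. Its log2 fold change was -0.85 in the libraries labelled Aomdv1 (95% interval -1.72 to 0.02, adjusted p = 0.23) and -0.28 in those labelled Aovps1 (-1.14 to 0.59, adjusted p = 0.67). The first of these passed the threshold without WT library 3 (-1.26, adjusted p = 0.0321).

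AOL_s00076g267 resembles the very-long-chain 3-oxoacyl-CoA reductase, the enzyme for the first reduction step in each round of fatty acid elongation in the endoplasmic reticulum. Its FPKM was 235, 210 and 360 in the libraries labelled Aomdv1, 258, 365 and 221 in those labelled Aovps1 and 198, 138 and 174 in WT. All libraries of both labelled mutant groups lay above all WT libraries, with log2 fold changes of 0.63 (adjusted p = 0.263) and 0.71 (adjusted p = 0.155). A second gene with this hit, AOL_s00078g485, was far lower, at a mean of 5.27 FPKM in the libraries labelled Aomdv1, 2.90 in those labelled Aovps1 and 2.40 in WT, with overlapping groups. AOL_s00006g28, with a hit to a 3-oxoacyl-[acyl-carrier-protein] reductase of the type that serves fatty acid synthesis in mitochondria and bacteria, averaged 44.9 ± 6.15, 41.1 ± 3.74 and 45.5 ± 19.9 FPKM in the same order (log2 fold changes 0.05 and -0.07, adjusted p = 0.95 and 0.906). The 95% intervals of these changes were -0.67 to 0.78 and -0.79 to 0.66.

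The member with a hit to a melanin enzyme, AOL_s00080g400, was among the more abundant ones. Its hit is tetrahydroxynaphthalene reductase, which in Magnaporthe reduces a polyketide precursor of dihydroxynaphthalene melanin; its KEGG name is a sorbose reductase. It had 245, 160 and 812 FPKM in the libraries labelled Aomdv1, 328, 346 and 275 in those labelled Aovps1 and 100, 65.7 and 130 in WT. Every library of the labelled mutants lay above every WT library, and library 3 labelled Aomdv1 was the highest of all. The log2 fold changes over WT were 1.73 (SE 0.53, adjusted p = 0.0677) and 1.72 (SE 0.53, adjusted p = 0.0557), neither past the threshold. For Aovps1 the adjusted p was 0.0492 without WT library 3 and 0.00506 in a fit of those libraries and WT alone, and for Aomdv1 it was 0.0264 without library 2 of that label. The other member that keywords placed in the same type of hit, AOL_s00079g110, resembles 5'-hydroxyaverantin dehydrogenase of the aflatoxin pathway of Aspergillus. It averaged 41.2 ± 4.94, 32.2 ± 3.10 and 36.6 ± 6.35 FPKM in the libraries labelled Aomdv1, those labelled Aovps1 and WT (log2 fold changes 0.17 and -0.17, adjusted p = 0.757 and 0.702).

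A pair of other abundant members had hits to enzymes of alkaloid and toxin pathways. AOL_s00004g596 resembles easD, the chanoclavine-I dehydrogenase of ergot alkaloid synthesis in Claviceps. It had 211, 125 and 359 FPKM in the libraries labelled Aomdv1, 172, 257 and 170 in those labelled Aovps1 and 126, 108 and 123 in WT. The libraries labelled Aovps1 were all above WT, while library 2 labelled Aomdv1 lay within the WT range, and neither change was called (0.83, adjusted p = 0.22, and 0.72, adjusted p = 0.222). AOL_s00170g19, with a hit to VdtF of the viriditoxin cluster, had 79.0, 48.4 and 173 FPKM in the libraries labelled Aomdv1, 115, 134 and 117 in those labelled Aovps1 and 183, 249 and 89.0 in WT. All groups overlapped, and WT library 3 was low and library 3 labelled Aomdv1 high for their groups (-0.86, adjusted p = 0.337, and -0.39, adjusted p = 0.626). With both of these libraries left out, its changes were -1.77 (adjusted p = 0.00212) and -0.81 (adjusted p = 0.0304).

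A gene was called when the adjusted p of limma was under 0.05. Against WT, the libraries labelled Aomdv1 had 4 of the 38 tested members called higher and 0 called lower, while 5.62% of all 10318 tested loci were called higher and 4.22% lower. The 4 are 10.5% of the members tested, and each single gene is 2.63% of the list. AOL_s00006g479 and AOL_s00081g61 did not reach 1 FPKM in 3 libraries and were not tested. AOL_s00006g479 stood at 0 throughout the libraries labelled Aomdv1, at 0, 0 and 0.16 FPKM in those labelled Aovps1 and at 0.33, 0.12 and 0.67 in WT. AOL_s00081g61, with a hit to an L-xylulose reductase of sugar metabolism, was listed at 0 in 8 libraries and at 0.11 FPKM in WT library 2.

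For the libraries labelled Aovps1, 3 of the 38 were called higher and 1 lower, against 8.61% and 5.21% of all tested loci. Those shares, 7.89% and 2.63% of the members, are close to or under the background. Both sets of calls are relative to the same WT libraries and so are not independent of each other. Called genes had mean levels of 2.43 to 34.5 FPKM over the 9 libraries, and none of the 16 most abundant members was called.

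**Figure D2:**
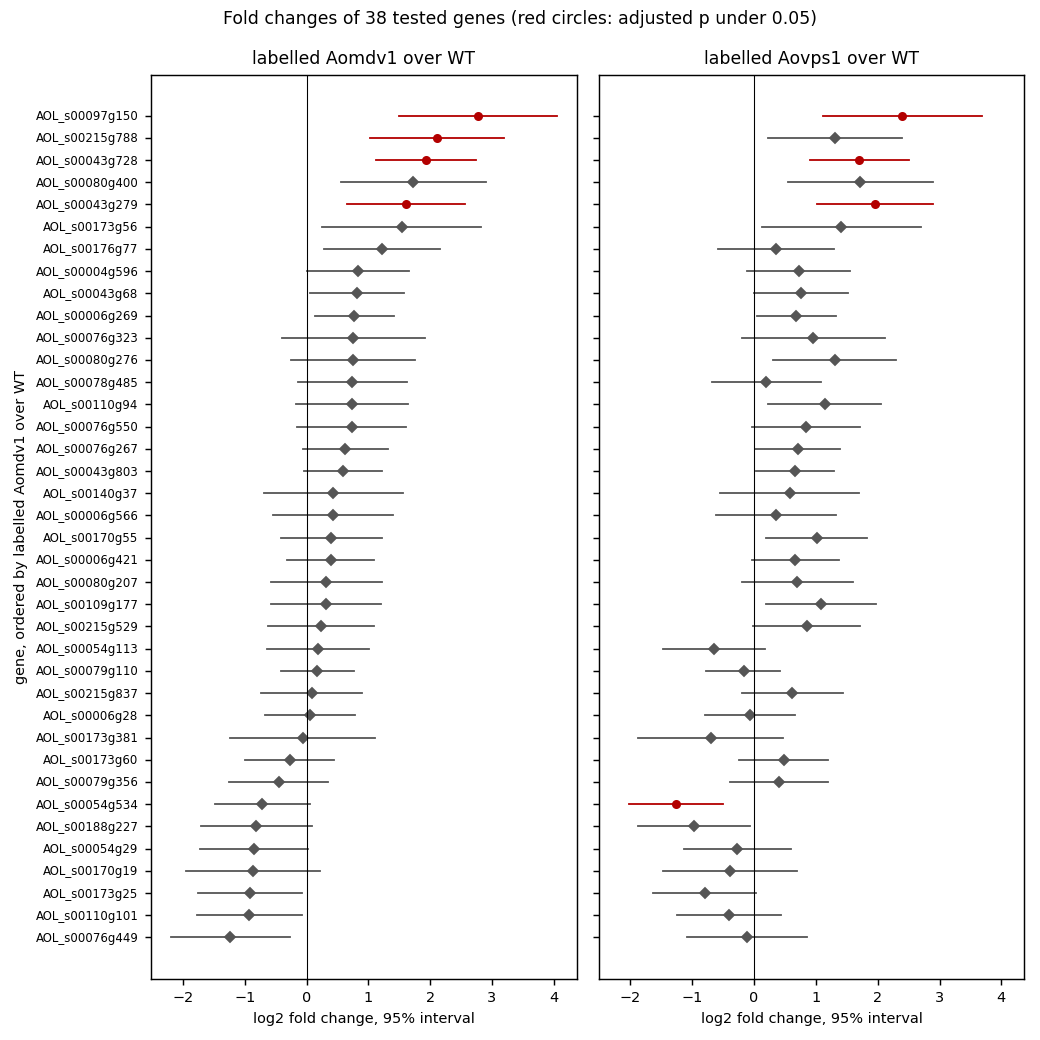
Log2 fold change over WT (horizontal axis, with 95% interval) of the 38 tested genes, left for the libraries labelled Aomdv1 and right for those labelled Aovps1, with genes in the same order. Red circles passed an adjusted p of 0.05: 4 genes on the left, all higher, and 4 on the right, of which 3 higher and 1 lower.

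The largest log2 fold change among the members was that of AOL_s00097g150 (scaffold NW_011645654.1, 532098 to 533217, minus strand), which resembles an uncharacterized oxidoreductase of fission yeast. Its FPKM was 7.16, 13.3 and 42.4 in the libraries labelled Aomdv1, 12.02, 19.9 and 7.39 in those labelled Aovps1 and 1.84, 1.73 and 1.03 in WT. The lowest labelled mutant library was above the highest WT library, and library 3 labelled Aomdv1 was the highest. It rose in the libraries labelled Aomdv1 (log2 fold change 2.78, SE 0.58, adjusted p = 0.0126) and in those labelled Aovps1 (2.39, SE 0.58, adjusted p = 0.0222). The first call was kept in every alternative run. The second was lost without library 1 labelled Aovps1 (adjusted p = 0.0768), without library 2 of that label (0.0962), without WT library 1 (0.0546) or 2 (0.0713), and with quantile scaling (0.053).

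AOL_s00043g728 (NW_011645600.1, 2468603 to 2469629, plus strand) resembles sor7, a dehydrogenase of the sorbicillinoid cluster of Trichoderma. It had 37.9, 49.6 and 60.4 FPKM in the libraries labelled Aomdv1, 40.9, 46.0 and 37.0 in those labelled Aovps1 and 9.65, 8.51 and 20.4 in WT. No labelled mutant library reached down to the WT range. The gene rose in the libraries labelled Aomdv1 (1.93, SE 0.36, adjusted p = 0.00748), a call kept in every alternative run, and in those labelled Aovps1 (1.70, SE 0.36, adjusted p = 0.0124). The call for Aovps1 was lost without library 1 or 2 labelled Aovps1 (adjusted p = 0.0553 and 0.0591) or WT library 2 (0.0574).

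AOL_s00043g279 (NW_011645600.1, 913901 to 915042, plus strand) lies on the same scaffold and resembles the oxidoreductase AN1596 of the pimaradiene cluster of Aspergillus nidulans, a diterpene pathway. Its values were 29.97, 32.9 and 16.7 FPKM in the libraries labelled Aomdv1, 32.0, 27.4 and 39.5 in those labelled Aovps1 and 5.84, 5.06 and 14.7 in WT. Library 3 labelled Aomdv1 came closest to WT library 3, the highest of the WT values. It rose in the libraries labelled Aomdv1 (1.61, SE 0.43, adjusted p = 0.0398) and in those labelled Aovps1 (1.96, SE 0.43, adjusted p = 0.0138). In the libraries labelled Aomdv1 this call was lost without libraries 1 and 2 of that label (adjusted p = 0.112 and 0.102), without WT libraries 1 and 2 (0.129 and 0.156), each left out in turn, with no filter on low values (0.0539) and when these 2 groups were fitted alone (0.136). In those labelled Aovps1 it was lost without libraries 1 and 3 of that label (0.0569 and 0.0733) and without WT libraries 1 and 2 (0.0527 and 0.0651), again each in turn.

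The other gene with a hit to AN1596, AOL_s00054g113, behaved differently. It had 129, 198 and 376 FPKM in the libraries labelled Aomdv1, 129, 124 and 104 in those labelled Aovps1 and 185, 226 and 157 in WT. All libraries labelled Aovps1 were below all WT libraries, while those labelled Aomdv1 lay on both sides of them. Its log2 fold changes were 0.18 (95% interval -0.64 to 1.01, adjusted p = 0.822) and -0.65 (-1.48 to 0.18, adjusted p = 0.267), neither past the threshold.

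AOL_s00215g788 (NW_011645772.1, 2657341 to 2658608, plus strand) resembles calI of the calbistrin cluster of Penicillium, a polyketide pathway. It was a low gene, with 3.45, 9.58 and 11.9 FPKM in the libraries labelled Aomdv1, 2.46, 6.55 and 3.36 in those labelled Aovps1 and 0.53, 2.09 and 0.59 in WT. All libraries of both labelled mutants were above WT. The gene rose in the libraries labelled Aomdv1 (2.11, SE 0.49, adjusted p = 0.021), and its change in those labelled Aovps1 was 1.31 (SE 0.49, adjusted p = 0.102). The call was lost without library 2 labelled Aomdv1 (adjusted p = 0.0642), without WT library 1 (0.0804) and when these 2 groups were fitted alone (0.0553). Fitted with WT alone, the Aovps1 change of 1.31 passed the threshold (adjusted p = 0.0497). The difference between the labelled mutants, Aovps1 over Aomdv1, was -0.81 (95% interval -1.89 to 0.28, adjusted p = 0.573), so the single call does not set them apart.

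AOL_s00054g534 (NW_011645611.1, 1719820 to 1720671, plus strand), with a hit to eupG of the eupenifeldin cluster, was the member that fell. It stood at 1.71, 1.52 and 3.09 FPKM in the libraries labelled Aomdv1, 2.07, 0.41 and 1.07 in those labelled Aovps1 and 3.78, 3.89 and 4.30 in WT. Every labelled mutant library was below every WT library, all at levels of a few FPKM. It fell in the libraries labelled Aovps1 (log2 fold change -1.26, SE 0.34, adjusted p = 0.0363), and its change in those labelled Aomdv1 was -0.72 (SE 0.34, adjusted p = 0.251). The call was lost with a pseudocount of 0.1 (adjusted p = 0.0529), without library 2 or 3 labelled Aovps1 (0.152 and 0.126) and without WT library 1 or 2 (0.0771 and 0.102).

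**Figure D3:**
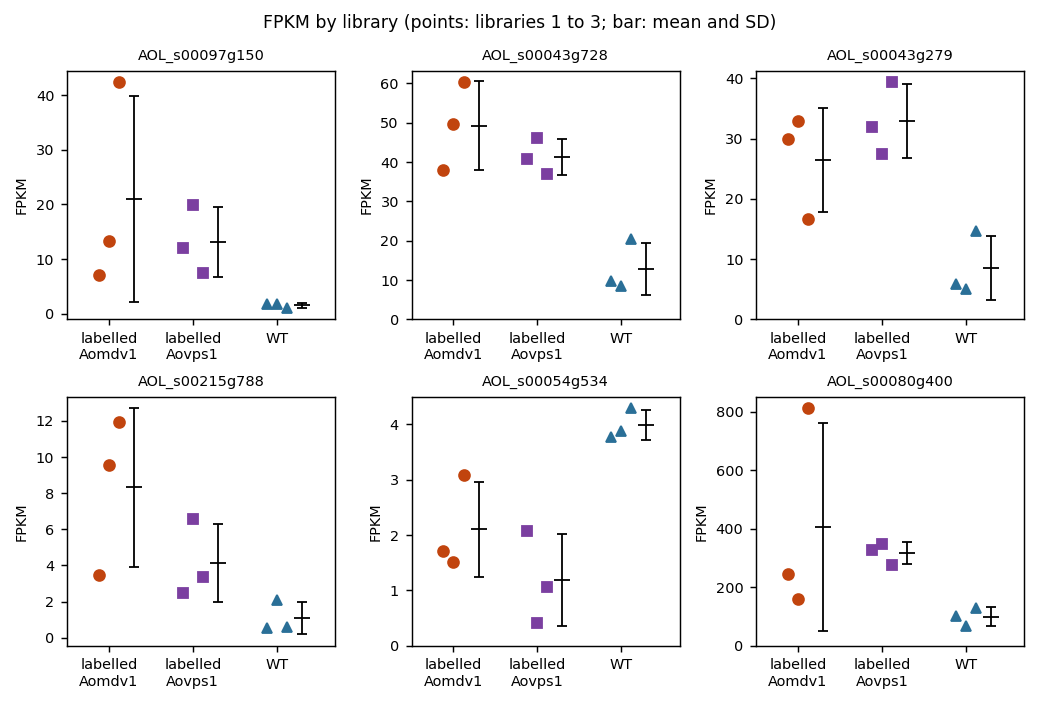
FPKM in each library (vertical axis) of the 5 genes called in at least 1 comparison with WT and of AOL_s00080g400, which was not called; points are libraries 1 to 3 of each group, and the bar beside them gives mean and SD. The labelled mutant libraries lie above the WT libraries in all panels except that of AOL_s00054g534, where they lie below.

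Some low members had groups that did not overlap without being called. AOL_s00006g269, with a hit to eriB, had 1.41, 0.72 and 1.65 FPKM in the libraries labelled Aomdv1, 1.16, 1.67 and 0.59 in those labelled Aovps1 and 0.50, 0.24 and 0.20 in WT. AOL_s00043g803, with a hit to virK of the trichoxide cluster of Trichoderma, had 1.94, 0.95 and 1.41, then 2.06, 1.12 and 1.48, and 0.65, 0.90 and 0.29 FPKM in the same order of groups. Both were above WT in every labelled mutant library and had log2 fold changes of 0.77 and 0.59 for Aomdv1 (adjusted p = 0.137 and 0.252) and 0.68 and 0.66 for Aovps1 (adjusted p = 0.142 and 0.145). AOL_s00188g227, with a hit to prx1 of the PR-toxin cluster, and AOL_s00173g25, with a hit to phmF of the phomacin cluster, went the other way: their means were 2.76 and 2.81 FPKM in the libraries labelled Aomdv1, 2.22 and 2.95 in those labelled Aovps1 and 5.82 and 6.05 in WT. All libraries labelled Aovps1 were below WT for both genes (-0.97 and -0.80, adjusted p = 0.135 and 0.18).

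Beyond the calls, more members stood higher than lower in the labelled mutants. With the label Aomdv1, 28 of 38 had a log2 fold change above 0 (73.7%), against 55% of all tested loci, and in those labelled Aovps1 27 of 38 did (71.1%), against 65.6%. The median log2 fold change of the members was 0.42 and 0.66, against 0.08 and 0.30 for all tested loci. With median-ratio scaling the medians were 0.30 and 0.35 for the members and -0.05 and 0.00 for all tested loci. These medians are a description of the list and were not tested.

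Groups without overlap were counted as well. For Aomdv1, 11 of 38 members were above WT in every pairing of libraries and 3 below, which is 28.9% and 7.89% against 13.5% and 8.56% of all tested loci. For Aovps1, 17 were above and 4 below, which is 44.7% and 10.5% against 33% and 13% of all tested loci. An unadjusted p under 0.05 was found for 12 members (31.6%) in the libraries labelled Aomdv1 and 16 (42.1%) in those labelled Aovps1, against 22.8% and 30.5% of all tested loci. The 3 members below WT in the libraries labelled Aomdv1 were AOL_s00054g534, AOL_s00076g449 and AOL_s00110g101.

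**Figure D4:**
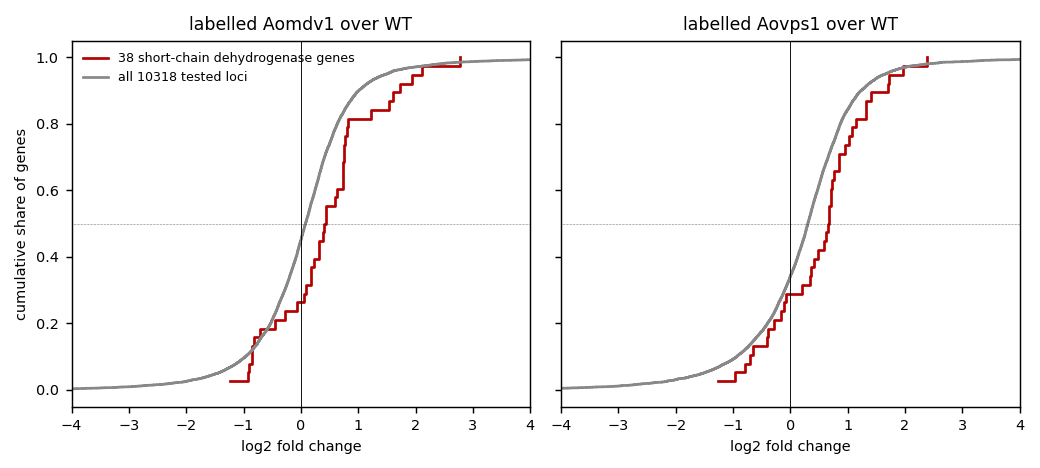
Cumulative share of genes (vertical axis) by log2 fold change over WT (horizontal axis, cut at -4 and 4), left for the libraries labelled Aomdv1 and right for those labelled Aovps1; red for the 38 tested members, grey for all 10318 tested loci. The red curve lies to the right of the grey one at the middle of both panels, at medians of 0.42 against 0.08 and 0.66 against 0.30.

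Of those lower members, AOL_s00076g449 resembles OXR1 of the ACE1 cytochalasan cluster of Magnaporthe. It had 77.0, 43.7 and 23.5 FPKM in the libraries labelled Aomdv1, 105, 66.0 and 122 in those labelled Aovps1 and 98.0, 80.9 and 136 in WT. Only the libraries labelled Aomdv1 were all below WT. The log2 fold change over WT was -1.23 (95% interval -2.20 to -0.26, adjusted p = 0.115) in them and -0.12 (-1.09 to 0.85, adjusted p = 0.877) in those labelled Aovps1. It passed the threshold with quantile scaling (-1.35, adjusted p = 0.049) and without library 1 labelled Aomdv1 (-1.65, adjusted p = 0.0418). Its difference between the labelled mutants was the largest among the members, 1.12 for Aovps1 over Aomdv1 (95% interval 0.15 to 2.08), but was not called (adjusted p = 0.507).

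Between the labelled mutants, 0 of 38 members and 0 of 10318 loci passed the threshold in limma, and the unadjusted p was under 0.05 for 4 members (10.5%) and 9.48% of all tested loci. The 4 were AOL_s00076g449, AOL_s00079g356, AOL_s00173g60 and AOL_s00054g113, with log2 fold changes of 1.12, 0.86, 0.75 and -0.83 for Aovps1 over Aomdv1. Of the 38, 21 had a log2 fold change above 0 (55.3%), against 62.4% of all tested loci. Groups did not overlap for 5 members that were higher in the libraries labelled Aovps1 (13.2%) and 2 that were lower (5.26%), against 17.4% and 6.1% of all tested loci. The member differences ranged from -0.86 to 1.12 with a median SE of 0.39. AOL_s00173g60, with a hit to the yeast oxidoreductase YIR035C, had 276, 307 and 216 FPKM in the libraries labelled Aovps1 and 203, 108 and 177 in those labelled Aomdv1, with 188, 146 and 247 in WT. Its values in the labelled mutants did not overlap, and WT overlapped both.

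A few libraries decided where the extremes lay. Library 3 labelled Aomdv1 held the highest value of the 9 libraries for 15 of 38 members, against 21.2% of all tested loci, and the lowest for 3 members, against 28.5% of all loci. WT library 3 held the highest value for 9 members (20.8% of all loci), and WT library 2 the lowest for 15 (24.6% of all loci). The median FPKM of the tested members was 28.7, 19.1 and 32.6 in the libraries labelled Aomdv1, 32.1, 31.0 and 31.9 in those labelled Aovps1 and 12.1, 11.6 and 26.3 in WT. WT library 3 was thus nearer to the labelled mutants than to the other WT libraries by this median.

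With WT library 3 and library 3 labelled Aomdv1 both left out, a choice made after the data were seen, Aomdv1 had 9 risers and 3 fallers among the members, against 19% and 7.84% of all tested loci. In those labelled Aovps1, 18 rose and 4 fell, against 32.3% and 11.6% of all tested loci. The members called then but not with all libraries included, for Aomdv1, AOL_s00054g29 (log2 fold change -1.30), AOL_s00080g400 (1.28) and AOL_s00170g19 (-1.77). For Aovps1 they included AOL_s00080g400 (1.94), AOL_s00076g267 (0.73), AOL_s00054g113 (-0.78) and AOL_s00170g19 (-0.81), and also AOL_s00110g94 (1.32), AOL_s00173g56 (1.45) and AOL_s00043g68 (0.82). The number of members called thus rests on these libraries, as does the number of loci called in the whole table. Without WT library 3 alone, Aomdv1 had 7 risers and 2 fallers (9.87% and 4.96% of all tested loci), and Aovps1 had 11 risers and 2 fallers (15.6% and 6.28% of all tested loci). When each labelled mutant was fitted with WT alone, there were 2 risers and 0 fallers for Aomdv1 (2.8% and 2.12% of all tested loci) and 8 and 1 for Aovps1 (16.7% and 7.36%). Between the labelled mutants, 0 members were called with both libraries left out, against 0.0969% of all tested loci called higher and 0.436% lower.

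**Figure D5:**
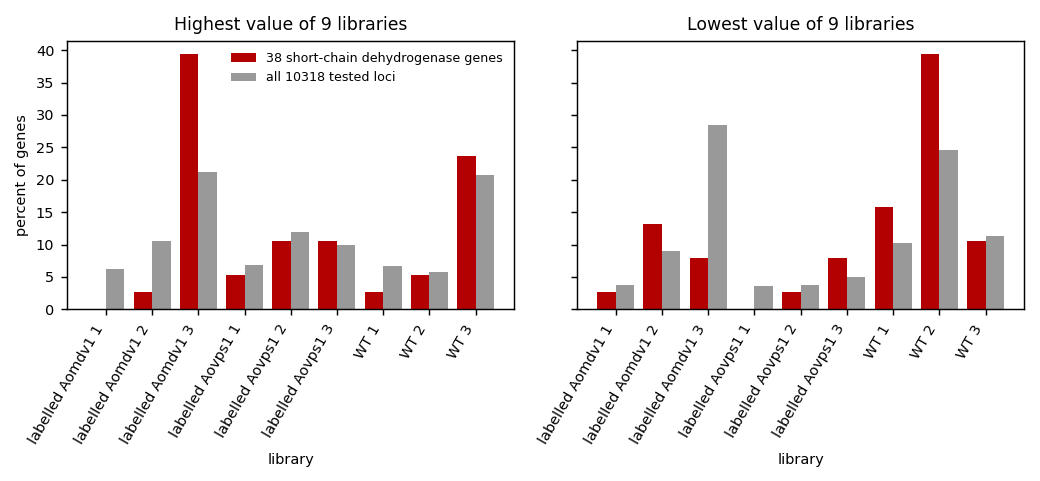
Percent of genes (vertical axis) whose highest value (left) or lowest value (right) of the 9 libraries falls in each library (horizontal axis); red for the 38 tested members, grey for all 10318 tested loci. Library 3 labelled Aomdv1 holds the highest value for 15 members and WT library 2 the lowest for 15.

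AOL_s00097g150, the member with the largest change, was most like AOL_s00215g788, AOL_s00173g56 and AOL_s00080g400 across the 9 libraries, with Pearson correlations of log2(FPKM + 1) of 0.90, 0.89 and 0.89. These points fall into groups by label and share their libraries, so the values only describe the likeness. AOL_s00173g56 resembles tropG of the tropolone cluster of Talaromyces. It had 11.1, 6.21 and 38.1 FPKM in the libraries labelled Aomdv1, 9.34, 22.4 and 9.90 in those labelled Aovps1 and 3.69, 4.45 and 4.44 in WT. All labelled mutant libraries were above WT, and the highest was again library 3 labelled Aomdv1. The log2 fold changes of 1.54 and 1.41 were not called (adjusted p = 0.138 and 0.13), and the second passed when those libraries and WT were fitted alone (adjusted p = 0.0271).

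Genes that share a best hit often stood at different levels; differences between their changes were not tested. Of the 3 with a hit to the T-toxin dehydrogenase RED2, AOL_s00080g276 averaged 44.2 FPKM in the libraries labelled Aomdv1, 65.9 in those labelled Aovps1 and 29.7 in WT. AOL_s00110g101 averaged 15.5, 21.7 and 30.2 in the same order, and AOL_s00170g55 averaged 3.72, 5.93 and 2.57. AOL_s00080g276 and AOL_s00170g55 had their Aovps1 values above all WT values (log2 fold changes 1.31 and 1.02, adjusted p = 0.0816 and 0.0928), and AOL_s00110g101 had its Aomdv1 values below all WT values (-0.93, adjusted p = 0.175). Of the 3 with a hit to eriB of the erinacine cluster, AOL_s00110g94 averaged 43.5, 52.2 and 23.5 FPKM, AOL_s00006g269 averaged 1.26, 1.14 and 0.313 and AOL_s00006g479 was not tested. The 3 with a hit to BOA17 of the botcinic acid cluster, AOL_s00076g323, AOL_s00006g566 and AOL_s00215g529, had log2 fold changes of 0.75, 0.43 and 0.23 in the libraries labelled Aomdv1 and 0.95, 0.35 and 0.85 in those labelled Aovps1, with adjusted p of 0.172 or more.

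Shares called by type of hit were set beside those of all tested loci, 5.62% up and 4.22% down for Aomdv1 and 8.61% and 5.21% for Aovps1. Of 27 tested genes with a hit to a biosynthetic cluster enzyme, Aomdv1 had 3 risers (11.1%) and 0 fallers, and Aovps1 had 2 risers (7.41%) and 1 faller (3.7%), a few genes from the shares of all loci. Of the 11 tested genes without such a hit, 1 rose in each (9.09%), AOL_s00097g150. Among the 6 genes with hits to uncharacterized oxidoreductases of yeasts that gene was the one called. AOL_s00043g68 of the same type had 72.6, 41.8 and 99.4 FPKM in the libraries labelled Aomdv1, 72.3, 57.2 and 65.2 in those labelled Aovps1 and 41.8, 31.1 and 41.4 in WT. Its libraries labelled Aovps1 were all above WT and library 2 labelled Aomdv1 was level with the highest WT library, with log2 fold changes of 0.81 and 0.76 (adjusted p = 0.186 and 0.164). The change passed for Aomdv1 without library 2 of that label (1.15, adjusted p = 0.0491) and for Aovps1 when fitted with WT alone (0.76, adjusted p = 0.0464). The 3 genes of the oxoacyl type had 0 calls in either direction. So had the 2 that the keywords placed under polyketide pigment and toxin enzymes, AOL_s00080g400 and AOL_s00079g110. That keyword group leaves out other members with hits to polyketide or toxin pathways, among them the called AOL_s00215g788.

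Genes kept by the Pfam rule seldom lay near each other. Some had an oxidoreductase under another Pfam name, enoyl-(acyl carrier protein) reductase, directly beside them. AOL_s00081g60, with the same L-xylulose reductase hit as AOL_s00081g61, lies 96 bp from it. AOL_s00140g38, with a hit to an uncharacterized oxidoreductase, lies 522 bp from AOL_s00140g37. Neither neighbour was called. AOL_s00173g56 and AOL_s00173g60 are 6798 bp apart with 3 genes between them, of which AOL_s00173g57, a gene for a membrane-bound O-acyltransferase, rose in the libraries labelled Aomdv1 (1.66, adjusted p = 0.0208) and in those labelled Aovps1 (2.56, adjusted p = 0.00193). Its mean was 70.6 and 134 FPKM in them, against 21.5 in WT. The short-chain dehydrogenases on either side were not called. AOL_s00110g94 and AOL_s00110g101 are 17672 bp apart; of the 6 genes between them, 3 fell in both labelled mutants. These were AOL_s00110g98 with a trypsin domain, AOL_s00110g99 with no domain named and AOL_s00110g100 with ankyrin repeats, at log2 fold changes of -3.59, -2.78 and -3.22 for Aomdv1 and -4.30, -3.75 and -3.21 for Aovps1 (adjusted p of 0.00911 or less). The members at the 2 ends were not called, although AOL_s00110g94 was at 1.14 (adjusted p = 0.0903) in the libraries labelled Aovps1 and passed when these were fitted with WT alone (adjusted p = 0.0196).

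Each member has 2 immediate neighbours with a locus tag, 80 genes in all, of which 69 were tested. Among these, Aomdv1 had 2 risers (2.9%) and 8 fallers (11.6%), against 5.62% and 4.22% of all tested loci. Aovps1 had 3 risers (4.35%) and 9 fallers (13%), against 8.61% and 5.21%. These shares describe the list and were not tested. The gene after AOL_s00043g728, AOL_s00043g729 with a methyltransferase domain, lies 103 bp from it on the other strand and rose in both (1.53, adjusted p = 0.0487, and 1.98, adjusted p = 0.013), with means of 32.3, 42.7 and 10.3 FPKM in the libraries labelled Aomdv1, those labelled Aovps1 and WT. By contrast, AOL_s00043g280, next to the riser AOL_s00043g279, fell in both (-2.01, adjusted p = 0.0136, and -1.51, adjusted p = 0.0413). The neighbour of AOL_s00215g837, the alkaline phosphatase gene AOL_s00215g838, averaged 7.58, 9.51 and 262 FPKM in the same order, while AOL_s00215g837 itself, with a hit to RED1 of the pyriculol cluster of Magnaporthe, averaged 23.8, 34.1 and 23.4 (log2 fold changes 0.09 and 0.62, adjusted p = 0.924 and 0.282). AOL_s00140g36, which ends 75 bp from AOL_s00140g37, averaged 0.607, 1.15 and 23.3 FPKM, while AOL_s00140g37 averaged 4.07, 4.63 and 3.76 (0.43 and 0.58, adjusted p = 0.68 and 0.474).

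Some other families of NAD(P)-dependent oxidoreductases were counted beside the same shares of all tested loci. These were 5.62% up and 4.22% down for Aomdv1 and 8.61% and 5.21% for Aovps1. Genes with the enoyl-(acyl carrier protein) reductase domain, such as AOL_s00081g60 and AOL_s00140g38, were not among the families counted. Of 23 tested genes with zinc-binding or GroES-like alcohol dehydrogenase domains, Aomdv1 had 6 risers (26.1%) and 1 faller (4.35%) and Aovps1 had 7 risers (30.4%) and 2 fallers (8.7%). Among them AOL_s00054g672, with a hit to an uncharacterized yeast membrane protein, had the smallest adjusted p for both labels. Its log2 fold changes were 5.87 for Aomdv1 and 5.59 for Aovps1 (adjusted p = 1.04e-06 and 2.15e-06). AOL_s00215g809, with a hit to a trans-enoyl reductase of a polyketide pathway, averaged 728 ± 128, 698 ± 30.9 and 32.4 ± 20.2 FPKM (SD, n = 3 each). Its log2 fold changes were 4.63 and 4.58 (adjusted p = 6.8e-05 and 7.72e-05). Of 12 tested genes with an NmrA-like domain, a fold related to short-chain dehydrogenases, 4 rose (33.3%) and 0 fell in each. AOL_s00043g92 had the smallest adjusted p among them (5.49, adjusted p = 4.15e-06, for Aomdv1 and 4.18, adjusted p = 2.24e-05, for Aovps1). Of 19 aldo/keto reductase genes 2 rose (10.5%) and 0 fell in each. AOL_s00170g104 had the smallest adjusted p there (4.52, adjusted p = 1.53e-05, and 3.47, adjusted p = 9.05e-05). Of 9 genes with the NAD-dependent epimerase domain, an extended relative of the family, 1 fell and 0 rose with the label Aomdv1, and 1 fell and 1 rose with the label Aovps1. The faller, AOL_s00043g281, lies next but one to the riser AOL_s00043g279 and averaged 5.47, 1.93 and 93.5 FPKM (-3.41, adjusted p = 0.0279, and -4.29, adjusted p = 0.00796). No tested gene outside the family carried a KR domain entry in this table (0 genes), where further domains of a gene may go unlisted.

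Among the 8 short-chain dehydrogenase genes left out of the family, 5 rose (62.5%) and 1 fell (12.5%) in each labelled mutant. They include AOL_s00215g274 of the arthrosporol cluster and AOL_s00110g45, whose log2 fold changes were 2.49 and 5.45 in the libraries labelled Aomdv1 and 2.87 and 5.22 in those labelled Aovps1 (adjusted p of 0.000383 or less). Since 3 of these 8 were left out by name with their values known, the share of calls among them is not comparable with that of the 40.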

How the data were processed

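The authors deposited 1 table of FPKM values, rounded to 2 decimals, for 9 libraries; per the labels' protocols the libraries were made with standard Illumina methods from total RNA. The aligner, the counting program and the genome build are in none of the sources used here and so not stated. From these values log2(FPKM + 1) was computed for the 10318 loci that reached 1 FPKM in 3 or more libraries. All 9 libraries entered 1 linear model (limma 3.58.1 in R 4.3.3, trend on, moderated two-sided test, replicate number not in the model), with Benjamini-Hochberg adjustment over the 10318 loci and a threshold of 0.05. Fold changes are on the log2(FPKM + 1) scale, which understates changes of low genes. With 3 libraries on each side, the smallest p of an exact two-sided permutation test is 0.1, so none was run.

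Library depth was estimated from the steps between FPKM values of loci under 700 bp, of which 67.7 to 73.7% per library fell on whole fragments with a tolerance of 0.1. Spans include introns, so the estimate is rough. The model was also run on simulated data in which 200 of 10318 genes were changed. For Aomdv1 over WT it recovered 3% of simulated log2 changes of 1 and 40% of changes of 2. For Aovps1 over WT these shares were 1% and 44%. The real comparisons called 1015 and 1426 loci, far more than were changed in the simulation. The adjustment was therefore stricter there, and these shares do not give the share of true changes found here. A member without a call was not shown to be unchanged.

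The members, groupings and related families were chosen with earlier results of these data known. The lists by type of hit, the related families and the stage genes come from keywords in the table; the split by biosynthetic cluster hit was added later. Genes are named by a rule: the most abundant members, all called members, members near each other, 1 or 2 per type of hit, those most like the member with the largest change, and up to 2 called genes per related family. Members that share a best hit, those apart between groups, the 4 with the smallest p between the labelled mutants, and the neighbours were named after their values were seen. No sequence table was used here, so protein motifs were not examined. Alternatives were another pseudocount, 2 other filters, median-ratio and quantile scaling, a replicate block, a fit of 2 groups, no trend, and leaving out libraries. The table holds 0 columns of other samples, and 0 pairs of libraries are identical.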

Additional observations from a re-analysis of the deposited data

How the results depend on the processing

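Of the values of named members under each alternative, 845 kept their side of the threshold, 27 lost a call, 22 gained one and 0 reversed. The 845 include values that were not called to begin with and so had no call to lose. Of the calls given above, only those of AOL_s00097g150 and AOL_s00043g728 for Aomdv1 were kept in every alternative run. Fitting only the 2 groups compared gave 2 risers in the libraries labelled Aomdv1 (4 with all groups) and 8 in those labelled Aovps1 (3 with all groups). With WT library 3 and library 3 labelled Aomdv1 both left out the counts were 9 up and 3 down, and 18 up and 4 down. Quantile scaling gave 1 faller in the libraries labelled Aomdv1 (0 without it). The 1 faller in those labelled Aovps1 became 0 with a pseudocount of 0.1 and with a filter at a mean of 5 FPKM, which removes the gene. Leaving out 1 library at a time gave 2 to 7 risers and 0 to 2 fallers in the libraries labelled Aomdv1, and 0 to 11 and 0 to 2 in those labelled Aovps1. Between the labelled mutants 0 members were called in any alternative run. For all tested loci, the share of calls that were rises went to 42.6% with median-ratio scaling in the libraries labelled Aovps1, against 62.3% as deposited; the counts of members stayed at 3 and 1. The causes were not tested.

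Same-numbered libraries of different groups did not deviate together (correlations of -0.283 to 0.387), so the numbers were not taken to pair them. With the replicate block, Aomdv1 had 3 risers and 0 fallers (4.98% and 3.68% of all tested loci), and AOL_s00043g279 had an adjusted p of 0.0689; Aovps1 had 4 risers and 1 faller (6.83% and 4.58% of all tested loci), and AOL_s00080g400 had an adjusted p of 0.0454; between the labelled mutants 0 were called. The planned split by protein motifs was not run. Depth limits the lowest members: AOL_s00006g479 and AOL_s00081g61 stood at 0.67 and 0.11 FPKM at most.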
